A study of Mus musculus with 6 samples.

Results

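The genes of respiratory complex I were taken as all genes whose mouse symbol begins with Nduf and which the annotation classes as protein coding, 46 of the 53379 genes in each count table. Of these, 38 carry a subunit symbol (Ndufa, Ndufb, Ndufc, Ndufs or Ndufv) and 8 are assembly factors (Ndufaf1 to Ndufaf8). Another 5 Nduf entries, pseudogenes by name or of a noncoding class, were left out. The RNA came from Min6, a mouse insulinoma line used as a model of the insulin-secreting beta cell. RNA recovered with an antibody against hnRNPK (hnRNPK IP, 3 libraries) was compared with total RNA of the lysate (3 libraries). Cells of both groups had the same treatment, which the labels name glucolipotoxicity: 25 mM glucose with 500 µM palmitic acid for 30 h, at passage 31. No untreated cells and no control-antibody IP were analysed here, so a difference between IP and total RNA includes whatever the beads and antibody recover without hnRNPK.

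Complex I is the NADH:ubiquinone oxidoreductase of the inner mitochondrial membrane. Its peripheral arm takes electrons from NADH through a flavin and a chain of iron-sulfur clusters to ubiquinone, and its membrane arm pumps protons, using core subunits encoded by mitochondrial DNA. Nuclear genes encode the core of the peripheral arm, many accessory subunits that surround both arms, and assembly factors that join the modules and are absent from the finished enzyme. In beta cells, ATP made by oxidative phosphorylation closes potassium channels and so triggers insulin release. hnRNPK is a mainly nuclear RNA-binding protein whose KH domains prefer C-rich single-stranded RNA.

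The 6 libraries held 38764925 to 52735957 counts. In total RNA, 8 of 8 beta cell markers were at 1 CPM or more (counts scaled to each library's total with TMM factors), with a sum of 20796 to 30100 CPM. Of 4 markers of other islet cells, 2 reached 1 CPM, with a sum of 133 to 167 CPM, nearly all of it from the glucagon gene Gcg at 151 CPM. None of 4 exocrine and duct markers did (sum 0.434 to 0.546 CPM, with Amy2a1 and Cpa1 at 0), and 1 of 4 stromal, endothelial and immune markers did, Pecam1 at 1.30 CPM. Whether replicate libraries were grown and lysed apart is not stated in the labels, and every p-value below reflects the spread among these 6 libraries, part of which may be technical.

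Nearly all nuclear complex I transcripts were scarcer in the hnRNPK IP than in total RNA. Of the 46 genes, 45 had enough reads to be tested, and 43 of these were depleted and 0 enriched (edgeR quasi-likelihood F test, p adjusted by Benjamini-Hochberg over all genes, under 0.05). Over all 16929 genes tested, 33.6% were depleted and 28.9% enriched by the same rule. The median log2 fold change (IP minus total RNA) of the 45 genes was -3.24, or 9.45-fold lower in the IP, against -0.07 for all genes tested. At least 2-fold depletion was found for 41 of the 45, where the share over all genes was 24.5%, and at least 8-fold depletion for 23, where it was 5.64%. In 43 of the 45, every IP library lay below every total RNA library, which held for 39.3% of all genes. At an unadjusted p under 0.05 the number of members higher in the IP was also 0, and DESeq2 and limma-voom called 0 enriched. Scaling by library totals in place of TMM factors lowered log2 fold changes by a median of 0.43 over all genes and moved the enriched share of all calls from 46.3% to 32.1%, and the 43 depleted members stayed depleted.

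**Figure D1:**
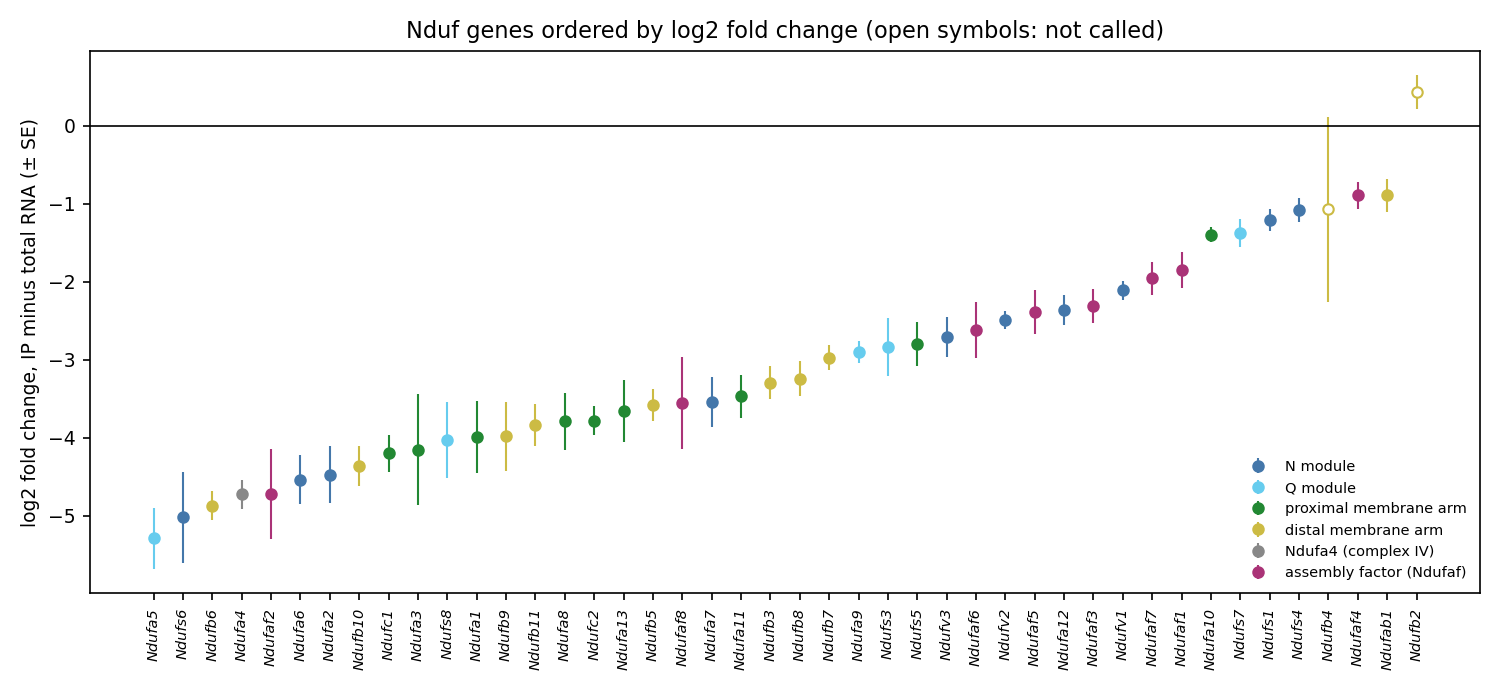
Log2 fold change of hnRNPK IP against total RNA (vertical axis, points with bars of ± 1 SE) for the tested Nduf genes described here, sorted along the horizontal axis from the lowest to the highest and coloured by module, with assembly factors in their own colour and open symbols for genes not called. The points run from -5.29 for Ndufa5 to 0.43 for Ndufb2, and Ndufb2 and Ndufb4 are the genes not called.

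The 3 most depleted members were accessory subunits of different modules. Ndufa5, an accessory subunit of the Q module on chromosome 6 (GRCm38 chr6:24518666-24528013), had 2.16, 0.758 and 2.44 CPM in IP libraries 1 to 3 and 53.9, 77.9 and 80.0 CPM in total RNA libraries 1 to 3. Its level was therefore 39.1-fold lower in the IP, with no overlap of the groups (log2 fold change -5.29 ± 0.39 SE, edgeR quasi-likelihood adjusted p = 1.24e-05). Ndufs6, a zinc-binding accessory subunit of the N module (chr13:73319838-73328542), had 0.473, 0.910 and 2.99 CPM in the IP and 34.9, 53.5 and 56.8 CPM in total RNA. IP library 3 was the highest of the 3 and still far below total RNA (log2 fold change -5.02 ± 0.58, edgeR adjusted p = 0.000140). Without IP replicate 3 the log2 fold change was -6.19, below that of Ndufa5. Ndufb6, an accessory subunit of the distal membrane arm (chr4:40270591-40279421), had 1.12, 1.00 and 1.32 CPM in the IP and 30.3, 36.8 and 34.2 CPM in total RNA (log2 fold change -4.87 ± 0.19, edgeR adjusted p = 1.29e-06).

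At the other end of the depleted members stood Ndufab1, Ndufaf4 and Ndufs4. Ndufab1 encodes the mitochondrial acyl carrier protein, which serves fatty acid synthesis as well as complex I (chr7:122085403-122101886). It had 7.30, 11.4 and 11.6 CPM in the IP and 16.6, 19.6 and 20.1 CPM in total RNA, a 1.85-fold depletion (log2 fold change -0.89 ± 0.21, edgeR adjusted p = 0.00677). Ndufaf4, which acts early in the assembly of the Q module (chr4:24898083-24905001), had 15.8, 19.0 and 12.9 CPM in the IP and 27.4, 28.9 and 32.4 CPM in total RNA. This was the same log2 fold change of -0.89 ± 0.17 (edgeR adjusted p = 0.00202). Ndufs4, an accessory subunit whose loss causes a Leigh syndrome-like disease in mice (chr13:114287795-114388258), had 15.6, 18.1 and 20.8 CPM in the IP and 34.2, 38.4 and 42.7 CPM in total RNA (log2 fold change -1.08 ± 0.15, edgeR adjusted p = 0.000382). In all 3 genes every IP library was below every total RNA library.

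Because hnRNPK prefers C-rich RNA, the 30-base stretch with the most C was read from the principal transcript of each gene (GENCODE M21, GRCm38), and it is shown for the 3 lowest and the 3 highest of the depleted members. Each is written 5′ to 3′ in the sense of the transcript, and capitals mark runs of at least 3 C.
Ndufa5, 5′ UTR, chr6:24527894-24527923, minus strand: gtgctcaggcctgcttccaCCCtcatttcc
Ndufs6, 5′ UTR, chr13:73328488-73328517, minus strand: actCCCCgccgactgctgtgcgcctgcgcc
Ndufb6, coding sequence, chr4:40279224-40279253, minus strand: agtCCCCgggagCCCgtgttgCCCCCgcgc
Ndufab1, coding sequence, chr7:122101765-122101794, minus strand: tccgccgcctgCCCgcggccttcgcgccgc
Ndufaf4, 3′ UTR, chr4:24904446-24904475, plus strand: CCCagctgcagcaCCCCtCCCCCCCCatcc
Ndufs4, 3′ UTR, chr13:114288228-114288257, minus strand: taagCCCgttcttCCCCgtCCCatgctCCC
The stretch held 13 C in Ndufa5, 15 in Ndufs6, 14 in Ndufb6, 17 in Ndufab1, 20 in Ndufaf4 and 15 in Ndufs4. Over the 45 tested members the C count ran from 12 to 22, with a median of 15. The highest count was in Ndufb11, at a log2 fold change of -3.83. In Ndufa5 and Ndufs6 the stretch lay in the 5′ UTR, in Ndufb6 and Ndufab1 in the coding sequence, and in Ndufaf4 and Ndufs4 in the 3′ UTR. A stretch with at least 15 C was found in 30 of the 45 tested members (66.7%) and in 88.7% of nuclear protein-coding genes. Among genes with an mRNA of up to 1000 nt, the shares were 12 of 23 members (52.2%) and 63.6%. Over 1000 and up to 2000 nt they were 13 of 17 (76.5%) and 80.8%, and over 2000 nt 5 of 5 (100%) and 92.8%. The 4-base run CCCC, searched on the transcript strand, was in 93.3% of the members, in 98.3% of nuclear protein-coding mRNAs and in 87.4% of those of up to 1000 nt. Over the 45 members, Spearman's rho between the log2 fold change and the highest C count was 0.37, against 0.43 over nuclear protein-coding genes. From the shortest to the longest of these length classes, rho was 0.31, -0.14 and -0.4 over the members. Over nuclear protein-coding genes it was 0.22, 0.29 and 0.38. With CCCC runs per kb it was -0.09 over the members, 0.30 over nuclear protein-coding genes and 0.19 over those of up to 1000 nt. Longer transcripts offer more windows, and these values are descriptions of letters, not of binding.

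By their medians, subunits were further below total RNA than assembly factors. Of 37 subunit genes tested, 35 were depleted, 0 enriched and 2 not called, with a median log2 fold change of -3.47 (11.1-fold lower). Of 8 assembly factors, 8 were depleted, with a median of -2.35 (5.09-fold lower). The summed level of the subunit genes was 296, 269 and 361 CPM in the IP and 1828, 2372 and 2409 CPM in total RNA, that is 308.5 ± 47.3 against 2203 ± 325 CPM (SD, n = 3), 7.14-fold lower in the IP. The summed level of the assembly factors was 30.0, 37.4 and 29.6 CPM in the IP and 105, 123 and 132 CPM in total RNA, that is 32.3 ± 4.42 against 120.1 ± 13.7 CPM (SD, n = 3), 3.72-fold lower. With 3 libraries against 3, an exact permutation test of a summed level cannot give a two-sided p below 0.1, so these sums carry no test. The difference between subunits and assembly factors was not tested. The median principal mRNA was 908 nt for subunits and 1308 nt for assembly factors, and the part of mRNA length in the difference was not tested on its own. With an offset for the trend of the log2 fold change with exonic length over all genes, the medians were -2.70 for subunits and -1.71 for assembly factors. That offset used the union of a gene's exons, which can differ widely from the principal mRNA. For Ndufaf2 the union was 2978 nt and the mRNA 678 nt, and for Ndufb7 4522 and 623 nt. Over 1000 and up to 2000 nt, the median log2 fold change was -2.86 for 12 subunits and -2.31 for 5 assembly factors. At up to 1000 nt it was -3.83 for 21 subunits and -4.14 for assembly factors, an opposite order that rests on 2 genes, Ndufaf2 and Ndufaf8.

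**Figure D2:**
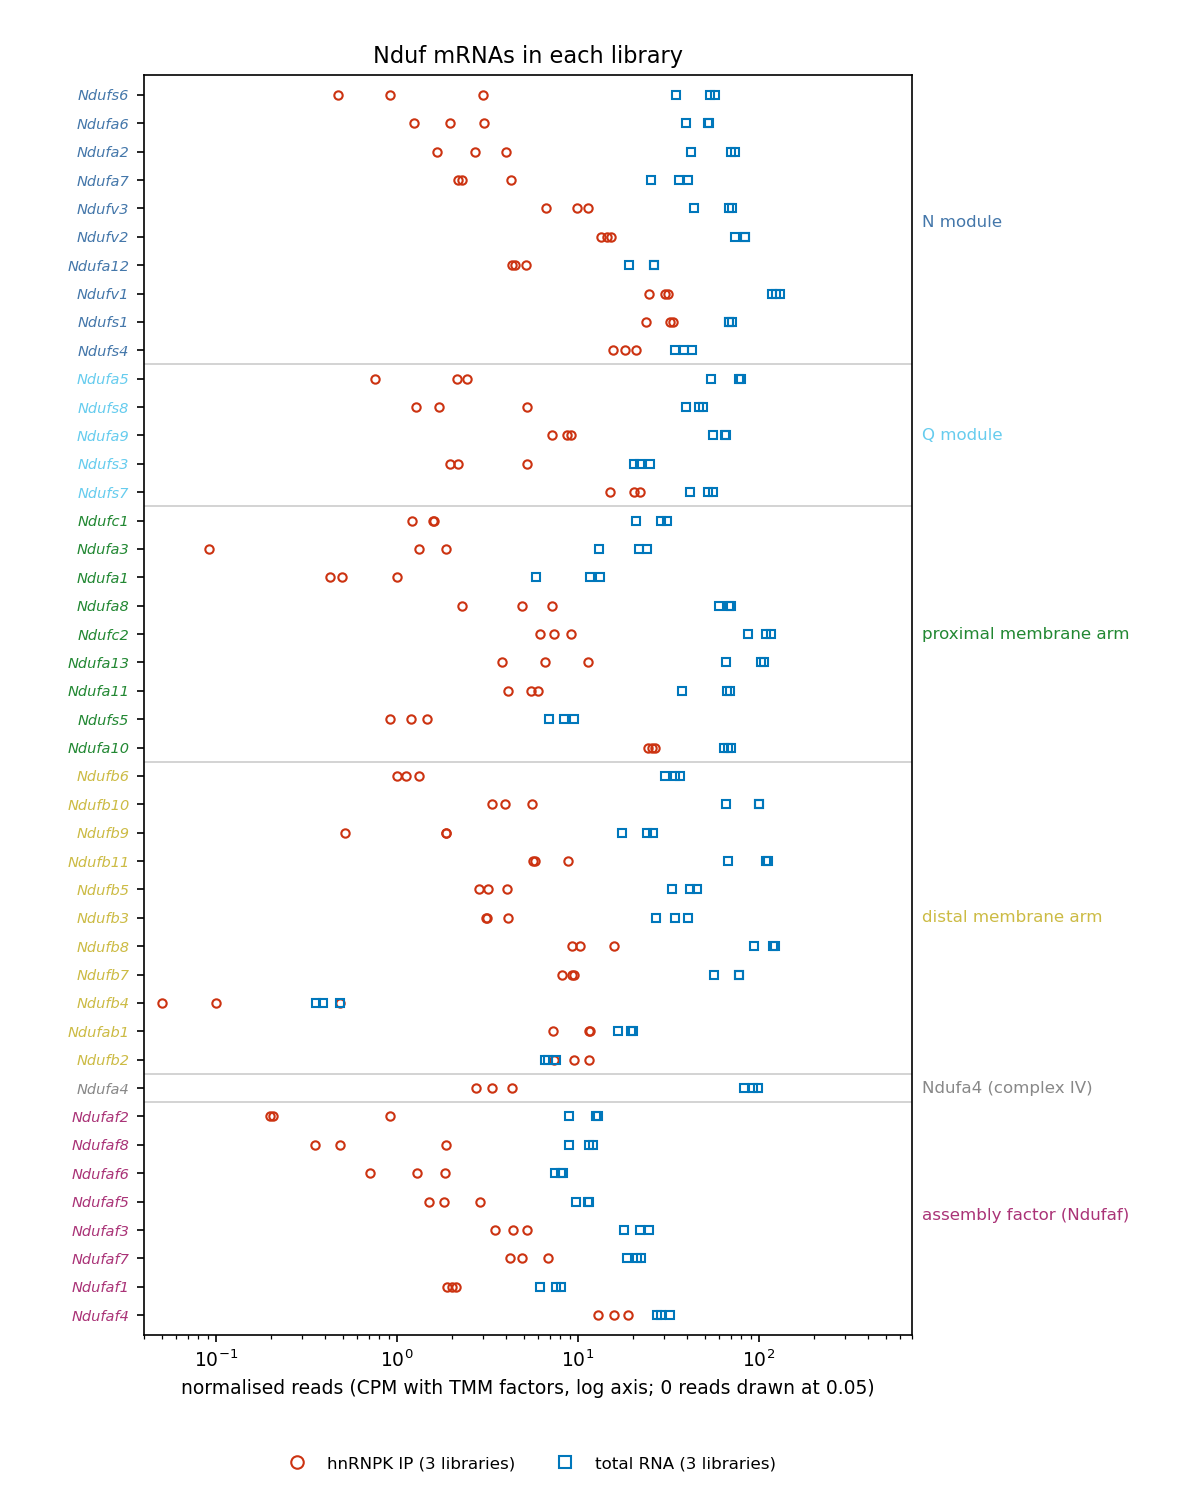
CPM (horizontal logarithmic axis) of the tested Nduf genes described here in the 3 IP libraries (circles) and the 3 total RNA libraries (squares), grouped by module down the vertical axis, with 0 reads drawn at 0.05 CPM. IP points lie below total RNA points for all depleted genes, and the groups overlap for Ndufb2 and Ndufb4.

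The 7 core subunits of the peripheral arm, most of which bind NADH, flavin, iron-sulfur clusters or ubiquinone, were all depleted, with a median log2 fold change of -2.49. Ndufv1, which binds NADH and the flavin, had 24.6, 30.2 and 31.6 CPM in the IP and 117, 124 and 131 CPM in total RNA (log2 fold change -2.11 ± 0.12). Ndufv2, which holds an iron-sulfur cluster beside it, had 15.1, 13.3 and 14.5 CPM in the IP and 73.6, 83.7 and 84.1 CPM in total RNA (-2.49 ± 0.11). Ndufs1, the largest core subunit and a carrier of several clusters, was the least depleted of the core, at 33.4, 23.8 and 32.1 CPM in the IP and 68.0, 70.6 and 68.4 CPM in total RNA (-1.21 ± 0.14). Its total RNA values were nearly equal, while its IP values were less alike.

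Other core subunits lie on the ubiquinone side. Ndufs7, which carries the last iron-sulfur cluster before ubiquinone, had 20.3, 14.98 and 22.1 CPM in the IP and 41.6, 55.4 and 52.4 CPM in total RNA (log2 fold change -1.38 ± 0.18). Ndufs3, a core subunit without a cluster, had 2.19, 1.97 and 5.21 CPM in the IP and 20.4, 22.0 and 25.0 CPM in total RNA (-2.84 ± 0.38). Ndufs8, a ferredoxin-like subunit, was the most depleted of the core at 1.27, 1.70 and 5.21 CPM in the IP and 39.7, 46.8 and 48.9 CPM in total RNA (-4.03 ± 0.49). For Ndufs3 and Ndufs8, IP library 3 was more than double the other IP libraries and still below each total RNA library. Without it the log2 fold change was -3.49 for Ndufs3 and -4.99 for Ndufs8. The edgeR quasi-likelihood adjusted p of the 7 core genes ran from 1.77e-06 (Ndufv2) to 0.000282 (Ndufs3).

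Accessory subunits were depleted in 27 of 29 cases, with a median log2 fold change of -3.58. By position in the enzyme, 10 of 10 N module genes were depleted (median -2.60, from -5.02 for Ndufs6 to -1.08 for Ndufs4), and 6 of 6 Q module genes (median -2.89, from -5.29 for Ndufa5 to -1.38 for Ndufs7). In the proximal membrane arm 9 of 9 were depleted (median -3.78), and in the distal arm 9 of 11 (median -3.29, from -4.87 for Ndufb6 to 0.43 for Ndufb2). No module stood apart from the others in direction. In the proximal arm, Ndufc1, a small accessory subunit, had 1.21, 1.58 and 1.60 CPM in the IP and 20.8, 31.1 and 28.9 CPM in total RNA, the lowest of its group (log2 fold change -4.20 ± 0.23, edgeR adjusted p = 3.89e-06). Ndufa10, which has a nucleoside kinase-like fold, was the highest there at 25.7, 26.5 and 24.5 CPM in the IP and 63.7, 67.8 and 70.1 CPM in total RNA (-1.39 ± 0.10, edgeR adjusted p = 9.55e-06). Its groups did not overlap.

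A pair of subunits of the distal arm, Ndufb2 and Ndufb4, were not called. Ndufb2 (chr6:39592574-39603382) had 9.45, 7.37 and 11.4 CPM in the IP and 6.83, 7.53 and 6.61 CPM in total RNA, so the groups overlapped (log2 fold change 0.43 ± 0.21, edgeR adjusted p = 0.114). Its value was -0.0014 with library totals, and 0.58 with a call of enriched (edgeR adjusted p = 0.0175) without IP replicate 2. The annotation gives Ndufb2 a principal transcript of 455 nt and another of 4371 nt with a long last exon, which overlaps 146 bases of Braf, a kinase gene on the opposite strand. Braf was higher in the IP, at 505, 697 and 446 CPM against 144, 115 and 118 CPM in total RNA (log2 fold change 2.13 ± 0.18, edgeR adjusted p = 2.51e-05), and its part in the Ndufb2 counts was not tested. The strand setting of the counting is unknown here, and without strand, reads of overlapping genes cannot be told apart. Ndufb2 also overlaps 156 bases of the antisense gene Gm16272. It shares 145 bases with Gm42420 on its own strand, where strand cannot separate the reads. Ndufb4 (chr16:37647170-37654453) had 0, 16 and 4 reads in the IP and 30, 21 and 19 in total RNA, too few to show a difference of this size (log2 fold change -1.07 ± 1.18, edgeR adjusted p = 0.462), and its value was -2.90 (edgeR adjusted p = 0.0546) without IP replicate 2. The 0 reads of IP library 1 allow up to 3 reads, or 0.0886 CPM. Ndufb4c, a near copy of Ndufb4 left out as a pseudogene, had 1.30, 2.65 and 2.56 CPM in total RNA, more than Ndufb4 itself at 0.482, 0.390 and 0.358 CPM, and reads shared by such copies may have been split or dropped.

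All 8 assembly factors were depleted, from -4.72 to -0.89 on the log2 scale. Ndufaf2, a paralogue of the subunit Ndufa12 that holds its place until late in assembly, was the most depleted, at 0.207, 0.910 and 0.200 CPM in the IP and 8.93, 12.5 and 12.8 CPM in total RNA (log2 fold change -4.72 ± 0.57, edgeR adjusted p = 0.000175), and its value was -5.79 without IP replicate 2. Its subunit counterpart Ndufa12 had 4.46, 4.31 and 5.19 CPM in the IP and 19.2, 26.2 and 26.3 CPM in total RNA (-2.36 ± 0.19, edgeR adjusted p = 2.00e-05). Both were lower in every IP library than in any total RNA library, and the difference between these paralogues was not tested. Exons of Ndufaf2 overlap 1955 bases of a long noncoding gene, B230220B15Rik, on the opposite strand. Such overlap is common here: exons of 19 of the 46 members overlap another gene. Among them are Ndufb6, Ndufs6, Ndufab1, Ndufs1, Ndufs3 and Ndufaf3.

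Ndufaf8 supports Ndufaf5, the enzyme that hydroxylates an arginine of Ndufs7. Ndufaf8 had 0.354, 0.485 and 1.87 CPM in the IP and 8.87, 11.5 and 12.1 CPM in total RNA (log2 fold change -3.55 ± 0.59), and its value was -4.74 without IP replicate 3. Ndufaf5 had 1.51, 1.82 and 2.87 CPM in the IP and 9.80, 11.3 and 11.5 CPM in total RNA (-2.39 ± 0.28). In both genes IP library 3 was the highest IP library and below all total RNA libraries. Ndufaf7 is an arginine methyltransferase, and it had 4.22, 6.86 and 4.91 CPM in the IP and 18.6, 21.2 and 22.2 CPM in total RNA (-1.96 ± 0.22).

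Ndufaf3, the partner of Ndufaf4 in early assembly, had 5.23, 4.37 and 3.47 CPM in the IP and 17.9, 22.0 and 24.7 CPM in total RNA (log2 fold change -2.31 ± 0.22), while Ndufaf4 itself fell by 0.89. Neither gene's groups overlapped. Ndufaf6, needed for early steps of assembly, had 0.709, 1.85 and 1.30 CPM in the IP and 7.49, 8.03 and 8.23 CPM in total RNA (-2.62 ± 0.36). Ndufaf1, a member of the complex that builds the membrane arm, had 1.89, 2.12 and 2.02 CPM in the IP and 6.18, 7.55 and 8.02 CPM in total RNA (-1.85 ± 0.23). The edgeR adjusted p of the 8 assembly factors ran from 4.45e-05 (Ndufaf3) to 0.00202 (Ndufaf4).

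Among assembly factors with other names, depletion was less uniform. Of 10 such genes measured, 8 were depleted, 1 was enriched and 1 was not called, with a median log2 fold change of -1.21. Dmac1, a factor of the distal membrane arm, was the lowest, at 1.71, 0.0607 and 2.05 CPM in the IP and 14.1, 21.9 and 22.7 CPM in total RNA (log2 fold change -3.92 ± 0.76, edgeR adjusted p = 0.00235). Dmac2 was the only one called enriched, at 42.3, 31.1 and 41.8 CPM in the IP and 26.3, 29.6 and 29.5 CPM in total RNA (0.43 ± 0.15, edgeR adjusted p = 0.0322). That call was lost with library totals, without a filter on low counts, with the replicate block, and without any single library other than IP replicate 2. Acad9, a partner of Ndufaf1 in the same assembly complex, had 21.4, 20.9 and 21.8 CPM in the IP and 16.6, 18.5 and 19.4 CPM in total RNA. Its IP libraries were all above its total RNA libraries, as for 32.2% of all genes, and it was not called (0.23 ± 0.13, edgeR adjusted p = 0.142), with a value of -0.20 under library totals.

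The log2 fold change rose with mRNA length across the Nduf genes. Spearman's rho with the length of the principal mRNA was 0.75 over 45 genes, 0.68 over 37 subunits and 0.93 over 8 assembly factors, and 0.49 over 13474 nuclear protein-coding genes. These are correlations across genes of the same 6 libraries, which share each library's depth and scaling and are not independent replicates. The Nduf mRNAs are short, with a median of 983 nt (419 to 4371 nt) against 3034 nt for nuclear protein-coding genes. Of members with an mRNA of up to 1000 nt, 22 of 23 were depleted, against 67.1% of all nuclear protein-coding genes of that length, and their median log2 fold change was -3.83 against -2.46. Over 1000 and up to 2000 nt, 17 of 17 were depleted, against 57.4%, with a median of -2.62 against -1.28. Over 2000 nt, 4 of 5 were depleted, against 28.1%, with a median of -0.89 against 0.19. The members' median thus lay below that of nuclear protein-coding genes in each length class. The last class held only Ndufa10, Ndufs1, Ndufab1, Ndufaf4 and Ndufb2. Of these, Ndufab1 and Ndufb2 also have shorter principal transcripts, of 1416 and 455 nt, and fall in this class by the longest. These classes were broad, and genes within them were not matched for length. Over nuclear protein-coding genes, rho with mRNA length was 0.107, 0.255 and 0.335 from the shortest to the longest class. Nor were the classes matched for level in total RNA. Between the log2 fold change and that level, rho over nuclear protein-coding genes was -0.47, -0.25 and -0.02 from the shortest to the longest class. Over the 45 members it was -0.26, and the part of level was not tested. The offset for exonic length moved 29 of the 45 members by more than 1.5-fold, each toward less depletion, and the 43 depleted members stayed depleted. Between the log2 fold change and the share of C in the mRNA, rho was -0.06 over the 45 members and 0.15 over nuclear protein-coding genes.

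**Figure D3:**
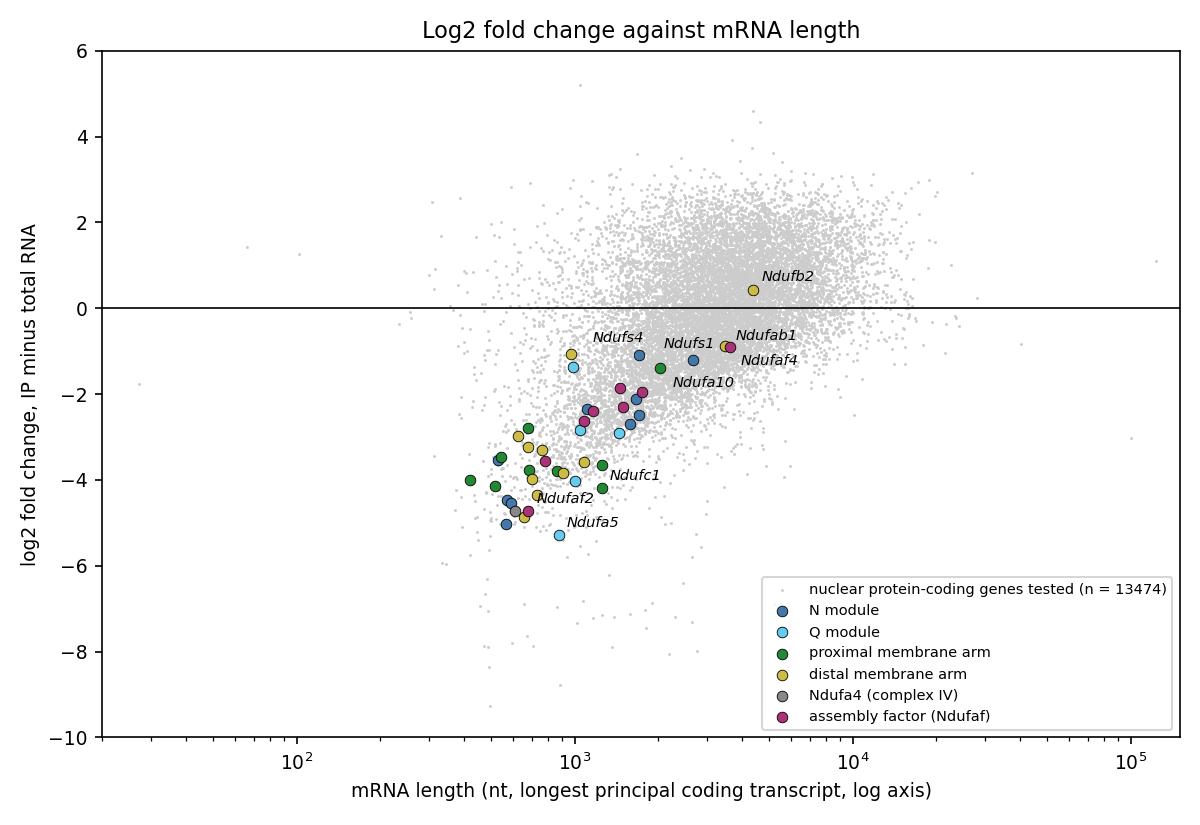
Log2 fold change of hnRNPK IP against total RNA (vertical axis) against the length of the principal mRNA in nt (horizontal logarithmic axis), for the Nduf genes described here coloured by module, assembly factors in their own colour, and 13474 nuclear protein-coding genes in grey. Nduf genes rise from a median of -3.83 at up to 1000 nt to -0.89 over 2000 nt (Spearman's rho 0.75 over 45 genes).

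Levels between genes were compared per kb of the longest coding transcript. In total RNA the median level of 36 complex I subunit genes was 46.2 CPM per kb, with the lowest level for Ndufb4 at 0.422, and that of 8 assembly factors was 8.73 CPM per kb, from 4.91 for Ndufaf1 to 16.9 for Ndufaf2. In the IP the medians were 5.18 and 1.57 CPM per kb. Among subunits with a high IP level per kb were the core subunits Ndufs7 (19.4) and Ndufv1 (17.3), and the highest of the assembly factors was Ndufaf4 (4.38). The order of subunit levels in the IP followed that in total RNA in part (Spearman's rho 0.49 over 36 genes), and for assembly factors it did not (-0.19 over 8 genes). Ndufaf2 illustrates the latter: it was the highest assembly factor per kb in total RNA and the lowest in the IP, at 0.647 CPM per kb. Its rank in total RNA depends on the length used, here 678 nt. Per kb of the union of its exons, 2978 nt, Ndufaf2 was not the highest in total RNA.

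Within groups, single libraries were shifted together. Total RNA library 1 was the lowest of its group for 35 of 37 subunits and for 8 of 8 assembly factors. In the IP, library 3 was the highest for 25 of 37 subunits and library 2 the lowest for 23. The shifts were not particular to complex I. Of 48 nuclear genes of complexes II to V, tested or not and with ties counted, total RNA library 1 was the lowest for 44. There, IP library 3 was the highest for 40 and IP library 2 the lowest for 36. For the assembly factors library 2 was instead the highest IP library in 5 of 8. These shifts were small beside the distance between the groups: the summed subunit level of the highest IP library was 361 CPM and that of the lowest total RNA library 1828 CPM.

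Some genes with an Nduf symbol lie outside the enzyme or outside the count. Ndufa4, now known as a subunit of complex IV, had 2.75, 4.31 and 3.34 CPM in the IP and 83.0, 99.2 and 92.6 CPM in total RNA (log2 fold change -4.72 ± 0.19, edgeR adjusted p = 1.32e-06). It is counted with the subunits by symbol, and without it the median of the 36 other subunit genes was -3.38. Its paralogue Ndufa4l2, induced by hypoxia in other cells, had 0, 0 and 42 reads in the IP and 4, 15 and 3 in total RNA and was not tested. The reads of that gene thus came mainly from IP library 3. Of the 5 entries left out, Ndufb1-ps, which the annotation gives a noncoding class, may be the mouse gene of the subunit Ndufb1, and is left out only by its name and class. It had 18, 14 and 19 reads in the IP and 727, 842 and 981 in total RNA (-4.99 ± 0.28, edgeR adjusted p = 3.81e-06). Ndufab1-ps was at -3.64 ± 0.56 (-4.40 without IP replicate 3), Ndufb4c was at -2.62 ± 0.98, and Ndufa11b and Ndufs6b were at or near 0 reads. The depletion call of Ndufb4c was lost without IP replicate 3 or any 1 total RNA library. It was also lost with DESeq2 size factors and with the offset for exonic length.

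The complex I genes of the mitochondrial genome moved the other way. Of 7 mt-Nd genes, 5 were enriched and 2 were not called, with a median log2 fold change of 2.11. Over all genes tested, 28.9% were enriched. The genes not called, mt-Nd3 and mt-Nd4l, had 372 and 56 reads over the IP libraries. The fewest among the enriched genes was 296763, for mt-Nd6. The summed level of the 7 genes was 23352, 18231 and 36559 CPM in the IP and 3952, 5949 and 5509 CPM in total RNA, with IP library 3 the highest and no overlap of the groups. The highest was mt-Nd6, a membrane arm subunit read from the opposite strand to the others, at 2529, 1966 and 3650 CPM in the IP and 315, 451 and 425 CPM in total RNA (log2 fold change 2.77 ± 0.24, edgeR adjusted p = 3.06e-05). The lowest was mt-Nd4l, at 0.945, 0 and 0.599 CPM in the IP and 1.04, 0.928 and 0.998 CPM in total RNA (-0.94 ± 1.08, edgeR adjusted p = 0.484), and its value was -1.67 without IP replicate 1. Nuclear copies of mitochondrial genes can take or share such reads, so these levels are uncertain.

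Most nuclear subunits of the other respiratory complexes were depleted as well. Of 44 nuclear genes of complexes II to V tested, 39 were depleted, 0 enriched and 5 not called, with a median log2 fold change of -3.30, against -3.38 for the 36 complex I subunits. The lowest was Atp5e, the epsilon subunit of ATP synthase, with 1.84 ± 1.55 CPM in the IP and 100.6 ± 30.4 CPM in total RNA (SD, n = 3), a log2 fold change of -5.74 ± 0.73. The highest was Atp5g2, which encodes the c subunit of ATP synthase, with 0.706 ± 0.206 and 0.693 ± 0.222 CPM (0.03 ± 0.59, edgeR adjusted p = 0.976), a value whose sign changed between settings. By complex, the median was -2.22 for the 4 genes of complex II, with Sdhc not called, -4.23 for 9 of complex III, -4.03 for 14 of complex IV and -3.27 for 17 of complex V. The median of complex I lay between these, and the differences were not tested.

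**Figure D4:**
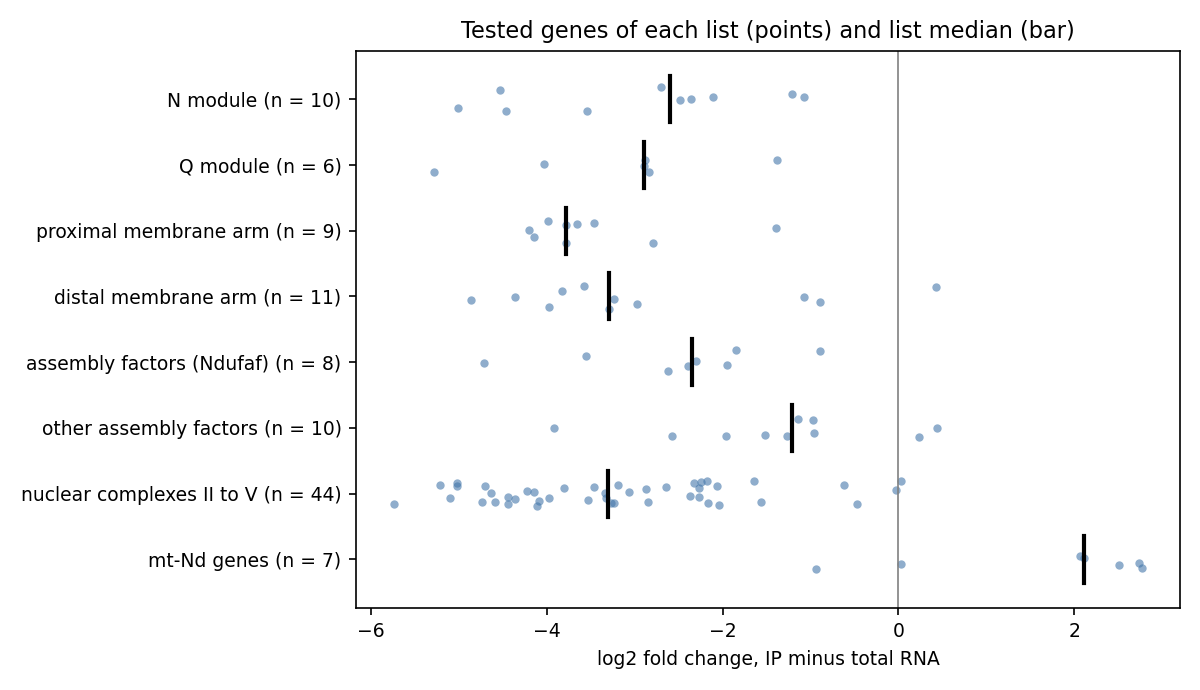
Log2 fold change (horizontal axis) of every tested gene (points) of the complex I modules and Ndufaf genes, the other assembly factors, the mt-Nd genes and the nuclear genes of complexes II to V, one list to a row, with a bar at each median; vertical scatter within a row has no meaning. Medians run from -3.78 in the proximal membrane arm to -1.21 for the other assembly factors among nuclear lists, and the mt-Nd median is 2.11.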

How the data were processed

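RNA immunoprecipitated with an hnRNPK antibody and total RNA from a 10% input were sequenced, 3 libraries each, grouped by sample title, with 38764925 to 52735957 counts per library. The authors' deposited values are whole-number read counts per gene, not normalized. Per the submitters' processing notes, reads were aligned to mm10 with TopHat2 and counted with featureCounts. Not given in the sources used here: tool versions, annotation release, strand setting and the treatment of multiply aligned reads.

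Symbols, gene classes and transcripts came from GENCODE M21 (GRCm38), which matched 53274 of 53379 gene identifiers. In no library did the 105 unmatched identifiers exceed 0.0237% of counts. The length of an mRNA is that of its principal protein-coding transcript, the longest where several are marked principal.

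Counts were tested over all genes in R 4.3.3 with edgeR 4.0.16: TMM factors, filterByExpr (minimum count 10, minimum total 15), the quasi-likelihood F test on group and Benjamini-Hochberg adjustment over 16929 genes, called at 0.05. The fit was tested on simulated data. Fold changes are log2, IP minus total RNA, ± SE. Within groups, chi-square per degree of freedom between libraries was 6.40 to 123, so none were duplicates.

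The members, the gene lists and the tests were chosen with earlier results of these data known. Values are named for all Ndufaf genes, the core subunits, the extremes of each list, the 3 highest and 3 lowest called members and members not called. Ndufa12, the values of Braf and the pseudogenes were added after values were seen. Of 11 other assembly factors listed, Coa1 had no match. The values of 1 member are not reported here, though it is counted in the totals and medians.

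Alternatives were other scaling (library totals, or DESeq2 1.42.0 size factors), no filter, leaving out each library, a replicate block, DESeq2, limma-voom (limma 3.58.1), halved counts, an offset for exonic length, another length for levels and, added after seeing the data, leaving out members whose exons overlap another gene.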

Additional observations from a re-analysis of the deposited data

How the results depend on the processing

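The 43 depleted members kept direction and call in all 14 alternative fits. The median log2 fold change was -3.90 for subunits and -2.78 for assembly factors with library totals, and -2.70 and -1.71 with the offset for exonic length. Without one library in turn it ran from -3.59 to -3.22 and from -2.46 to -2.24. Subunits enriched numbered 0 or 1, the 1 being Ndufb2 without IP replicate 2. With library totals Ndufb2 was at -0.0014, which reverses its sign. Of genes outside the set that were not called, the sign also reversed for Acad9 (-0.20 with library totals, -0.13 with the length offset), for mt-Nd4l (0.41 with the length offset) and for Atp5g2 (-0.41 with library totals, -0.0097 with no filter, and -0.20 to 0.35 without one library in turn). Leaving out members that overlap another gene, which removes genes by construction, left 20 of 21 subunits and 6 of 6 assembly factors depleted. With the union of exons as length, total RNA levels had medians of 27.9 CPM per kb for subunits and 6.25 for assembly factors.

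Deviations of same-numbered libraries from their group means correlated at 0.000874, -0.0709 and 0.12. With 3 libraries per group, such values cannot show whether the numbers pair the libraries. With the replicate block, 35 subunits (median -3.43) and 8 assembly factors (median -2.38) were depleted, and 4384 genes in all were enriched and 5364 depleted, against 4892 and 5680. No IP library correlated best with its own number, though IP library 3 was nearly tied (0.12 with total RNA library 3 and 0.122 with library 2). Depth limits Ndufb4 and Ndufa4l2, with at most 42 reads per library. Reads shared with near-identical copies, and strand, could not be checked from counts.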
